A study of Mus musculus with 8 samples.

Results

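The centromere, kinetochore and spindle checkpoint genes studied here are 42 genes, out of 36095 gene features on the array. They were chosen by name: every gene called Cenp followed by a single letter, together with a fixed set of kinetochore, checkpoint, passenger complex and shugoshin genes. Each gene was read from its brightest probe. Plasmacytoid dendritic cells (pDC) were grown with mFlt3-L from bone marrow precursors of female BALB/c mice and sorted by magnetic and flow cytometric methods, with no stimulus named in the labels. The 8 single-colour arrays comprised 4 samples of Sca-1+ pDC and 4 samples of Sca-1- pDC, and the series asks whether Sca-1 marks stages of pDC development. The labels do not state whether replicates were independent cultures or mice, so the p-values describe the spread among these 8 samples, which may be technical.

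The kinetochore is the protein assembly that joins a chromosome to the spindle. Its inner layer is built on centromeric chromatin that carries the histone variant CENP-A, its outer layer binds microtubules, and the spindle checkpoint holds cells before anaphase until all chromosomes are attached. Many of these genes are transcribed mainly in the late phases of the cell cycle, so their RNA is abundant in dividing cells, although others are made throughout the cycle. pDC precursors in the bone marrow divide, whereas mature pDC are largely non-dividing cells.

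Most of the 42 genes were lower in Sca-1+ pDC. Of the 41 genes tested, 28 fell and 0 rose at an adjusted p under 0.05, whereas 1.58% of all 19818 tested genes fell and 0.126% rose. All 28 were at least 2-fold lower, a call that 1.38% of all tested genes received. The median difference was -1.82 on the log2 scale over the 41 genes tested, beside 0.03 over all tested genes. All 42 differences were negative, that of the untested Cenpf included, beside 44.6% of the differences of all tested genes. A level is the log2 signal minus the array's 75th percentile, a difference is Sca-1+ minus Sca-1-, and the adjusted p is limma's over all tested genes. In bulk samples such as these, fewer cells of a type and less RNA per cell cannot be told apart.

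With the slide that held both samples of a replicate number as a block, 35 of the 41 genes fell and 0 rose, beside 4.12% and 2.1% of all tested genes. The median difference of the tested genes within slides 1 to 4 was -1.91, -1.74, -1.89 and -1.57. Leaving out Sca-1- replicate 2 reduced the count to 18. Besides Pmf1, Aurkb and Ttk, the calls of Birc5, Cdca8, Incenp, Cenph, Cenpl, Cenpp and Spc24 were each lost without at least 1 of Sca-1+ replicate 3 and Sca-1- replicates 1, 2 and 3 (adjusted p = 0.0503 to 0.0779). Normexp background correction gave smaller differences for Nuf2 (-1.43), Cenpp (-1.18) and Cenpm (-1.16), which still passed. Without both samples of replicate 1, 2 or 3 the count was 0, 0 or 3, and without replicate 4 it was 31, while the median difference stayed between -1.91 and -1.77 in these 4 fits. Only 3 of the tested genes, Cenpn, Ttk and Aurkb, were not well above background on every array. Each was dim only in Sca-1+ samples and met the filter of 4 arrays through the brighter Sca-1- group. Their calls, which are among the 28, are therefore not separate evidence of a fall. Of the 38 genes well above background on all 8 arrays, 25 fell.

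The groups did not overlap, with Sca-1+ lower, for 34 of the 41 genes, against 5.04% of all tested genes, and with Sca-1+ higher for 0, against 1.91%. On all 4 slides the Sca-1+ sample was lower for 40 of the 41 genes, against 17.8% of all tested genes, and the exception was Cenpb. Sizes were uneven. The difference was -1.5 or below for 26 genes, between -1.5 and -1 for 5 and above -1 for 10. The lowest 1% of all tested differences, 198 genes, contained 23 of these genes. In the unpaired fit Kntc1 was the lowest of them, at rank 27 (-2.27), followed by Nuf2 at rank 38, Cenpn at rank 49 and Birc5 at rank 52 (-2.19). That order changed with the processing, since normexp background correction gave -1.53 for Kntc1 and -2.18 for Birc5.

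**Figure D1:**
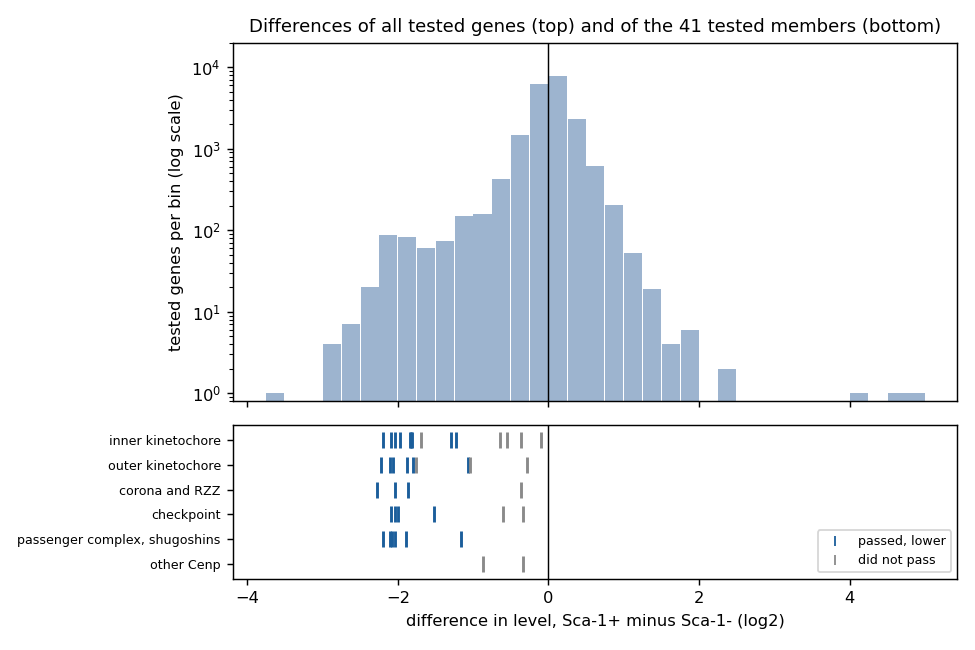
The upper panel plots the number of tested genes (log scale) in bins of the log2 difference, Sca-1+ minus Sca-1-, and the lower panel marks each of the 41 tested genes by role, in blue if it fell and grey if it did not pass. The 28 genes that fell lie on the far left of the distribution, and no gene of the module lies to the right of 0.

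The array facts and other markers were as follows. Between 45.9% and 54.9% of spots per array were well above background. Ly6a, which encodes Sca-1, had levels of 7.17 to 7.82 in Sca-1+ and 2.21 to 3.14 in Sca-1- samples. All 14 pDC markers were well above background on every array and 0 of them passed limma's test (3 had an unadjusted p under 0.05), with a summed level relative to the percentile of 2106 to 2822 in Sca-1+ and 1806 to 2622 in Sca-1- samples. Of the conventional DC, B, T and NK, monocyte and granulocyte, and erythroid and megakaryocyte markers, 0 passed limma's test (2, 1, 0, 1 and 0 had an unadjusted p under 0.05). Their summed levels were 35.6 to 46.9, 15.3 to 17.6, 19.8 to 23.96, 199 to 385 and 0.211 to 0.301 in Sca-1+ samples, in that order. In Sca-1- samples they were 25.7 to 31.9, 11.1 to 15.7, 16.9 to 23.0, 177 to 377 and 0.170 to 0.832. Of 9 B cell markers, 4 were well above background on all 8 arrays (Cd79a, Cd79b, Vpreb1 and Cd22). Another 4, Ms4a1 and Pax5 among them, were so on no array. Of 9 T and NK cell markers, 3 were so on all 8 arrays (Cd3e, Cd4 and Nkg7). Another 4, Cd3d, Cd3g and Ncr1 among them, were so on no array. Of 6 measured erythroid and megakaryocyte markers, 0 were so on all 8 arrays and 2, Klf1 among them, on no array. With the slide as a block, 3 pDC markers (Irf7, Tlr7 and Ccr9) and 3 conventional DC markers rose, and 1 marker each of conventional DC and of monocytes and granulocytes fell. In that fit 2.1% of all tested genes rose and 4.12% fell. Of 9 stem and progenitor markers, Cd93 (-1.98, adjusted p = 0.00503) and Sox4 (-1.19, adjusted p = 0.0155) fell, with summed levels of 41.4 to 75.01 in Sca-1+ and 55.1 to 91.4 in Sca-1- samples. Of 8 measured proliferation markers, 6 fell beside the kinetochore genes, among them Mki67 (-2.02), Top2a (-2.06) and Ccna2 (-2.15), while Pcna (-0.50) and Tyms (-0.28) did not pass. With the slide as a block 7 of the 8 fell, Pcna among them (adjusted p = 0.0220). Of all tested genes 1.58% fell in the unpaired fit and 4.12% with the block. Their summed level was 38.0 to 47.7 in Sca-1+ and 94.1 to 137 in Sca-1- samples. The part of any of these markers in the results below was not tested.

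Because these genes moved together, their promoters were searched for short elements known from promoters of late cell cycle genes. These are the cell cycle genes homology region, here TTTGAA or TTCGAA, and the CCAAT box, each on both strands. RefSeq promoter windows (GRCm38.p6, 250 bases before to 50 after an annotated start) matched 37 of the 42 genes with 42 windows, so Spc24, Nsl1, Zwilch, Aurkb and Incenp were not analysed here. TTTGAA was present in 38.1% of these windows, against 17.9% of all 32851 windows in the table, TTCGAA in 9.52% against 1.56%, and CCAAT in 64.3% against 37.4%. At least 1 of the homology elements together with a CCAAT box was found in 38.1%, against 7.52% of all windows. The share with that combination was 46.2% of the 26 windows of genes that fell, and 25% of the 16 windows of genes that did not pass or were not tested. By gene it was 52.2% of 23 and 21.4% of 14. The 3 genes behind the latter share were Bub3, counted in overlapping windows, Cenpw, which passed only with the slide as a block, and the untested Cenpf. A match is a run of letters and does not show a site in use. The combination was present in 12 of the 23 genes that fell and had a window. Birc5, Nuf2, Mad2l1, Cenpp and Cenpt, which also fell, held none of these elements. The windows below run from 120 bases before the start to 30 after it. They show 6 genes that fell, all chosen from those with the combination, and Bub3 and Mis12, which did not pass. Sequences are written 5′ to 3′ with every match in capitals and overlapping matches run together.
Cenpa (chr5:30666766-30666915, plus strand): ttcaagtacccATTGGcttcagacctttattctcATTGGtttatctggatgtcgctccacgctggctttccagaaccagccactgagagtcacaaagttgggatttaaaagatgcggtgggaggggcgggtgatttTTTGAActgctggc
Bub1 (chr2:127831830-127831979, minus strand): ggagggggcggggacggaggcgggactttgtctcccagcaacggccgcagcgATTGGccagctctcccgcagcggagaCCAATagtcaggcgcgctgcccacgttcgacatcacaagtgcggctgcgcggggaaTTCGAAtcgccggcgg
Cdca8 (chr4:124936888-124937037, minus strand): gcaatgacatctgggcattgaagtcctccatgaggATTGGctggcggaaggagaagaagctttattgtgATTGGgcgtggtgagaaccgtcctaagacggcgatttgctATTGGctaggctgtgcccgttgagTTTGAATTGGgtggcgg
Spc25 (chr2:69206184-69206333, minus strand): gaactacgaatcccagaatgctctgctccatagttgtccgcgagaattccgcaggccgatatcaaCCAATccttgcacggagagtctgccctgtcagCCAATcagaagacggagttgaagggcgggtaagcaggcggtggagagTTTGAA
Ttk (chr9:83834569-83834718, plus strand): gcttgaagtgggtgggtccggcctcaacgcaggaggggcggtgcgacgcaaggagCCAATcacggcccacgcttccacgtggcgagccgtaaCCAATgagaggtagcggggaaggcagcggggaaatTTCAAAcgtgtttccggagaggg
Kntc1 (chr5:123749606-123749755, plus strand): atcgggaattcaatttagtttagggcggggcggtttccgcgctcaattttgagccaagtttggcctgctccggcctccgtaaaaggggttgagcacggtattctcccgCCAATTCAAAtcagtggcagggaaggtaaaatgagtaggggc
Bub3 (chr7:131560250-131560399, plus strand): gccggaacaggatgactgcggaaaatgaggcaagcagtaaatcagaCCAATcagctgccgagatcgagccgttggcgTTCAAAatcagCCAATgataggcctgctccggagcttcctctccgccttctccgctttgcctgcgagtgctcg
Mis12 (chr11:71019491-71019640, plus strand): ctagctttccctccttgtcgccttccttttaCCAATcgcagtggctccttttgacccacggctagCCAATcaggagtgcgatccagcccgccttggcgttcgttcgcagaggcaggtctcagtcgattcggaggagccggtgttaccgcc
In Cenpa, Bub1, Cdca8, Spc25 and Ttk the homology element began 16, 14, 13, 24 and 7 bases after the start, with CCAAT boxes upstream of it in each. Bub3 also held a homology element with CCAAT boxes on both sides, and Mis12 held CCAAT boxes and no homology element in its window. The difference in these shares between genes that fell and the others was not tested.

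**Figure D2:**
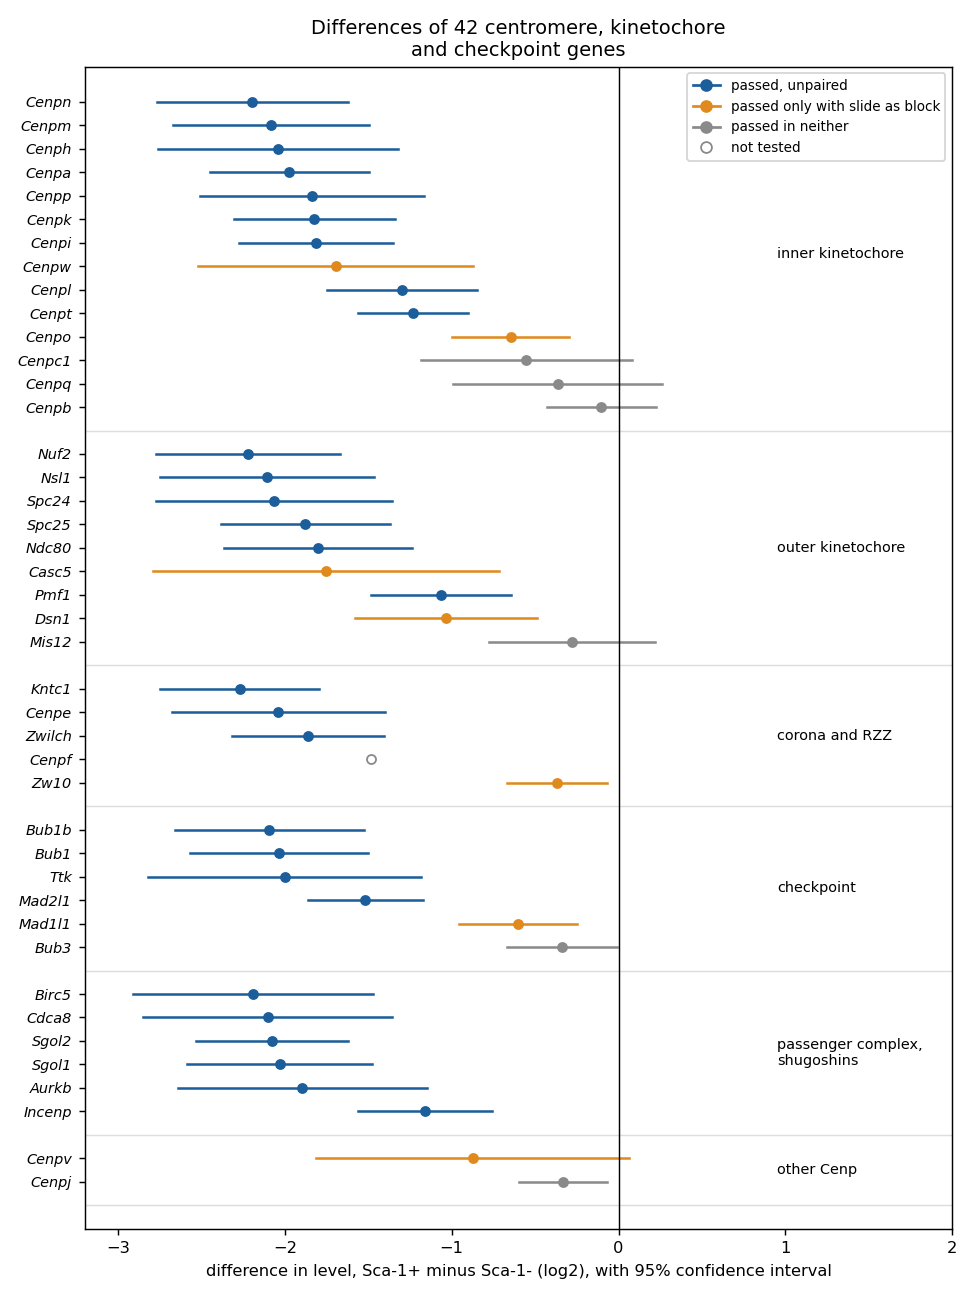
Each point is a gene's difference in level, Sca-1+ minus Sca-1- (log2), with its 95% confidence interval, arranged by role, and the colour gives the result of the test. The points run from -2.27 for Kntc1 to -0.10 for Cenpb, and Cenpf, which was not tested, is an open circle without an interval.

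Among the 14 genes of the centromeric nucleosome and inner kinetochore, 9 fell and 0 rose, with a median difference of -1.75, and 11 fell with the slide as a block. Cenpa, the centromeric histone variant that marks where the kinetochore forms, had levels of 1.32, 1.53, 1.04 and 1.02 in Sca-1+ replicates 1 to 4, against 3.51, 3.44, 3.14 and 2.73 in Sca-1- replicates 1 to 4. The groups did not overlap, and Cenpa was 3.93-fold lower (-1.97 ± 0.21 SE, adjusted p = 0.00503). Its probe position extends over 471 bases at chr5:30974916-30975386 (plus strand, mm9). Cenpi, a subunit of the constitutive centromere network, had levels of -1.09, -1.05, -1.64 and -1.07 in Sca-1+ samples, against 0.77, 0.92, 0.27 and 0.45 in Sca-1- samples. It was 3.51-fold lower (-1.81 ± 0.20 SE, adjusted p = 0.00520), and replicate 3 had the lowest level in each group. Cenpn, which reads the CENP-A nucleosome, had levels of -3.26, -3.94, -4.23 and -3.49 in Sca-1+ samples, against -1.06, -1.62, -1.68 and -1.77 in Sca-1- samples. The difference was -2.20 ± 0.25 SE (adjusted p = 0.00526), but only 1 of the 4 Sca-1+ arrays had the probe clearly above background, and with normexp background correction it was -0.78 and did not pass. Cenpm (-2.08), Cenph (-2.04), Cenpp (-1.84), Cenpk (-1.82), Cenpl (-1.296) and Cenpt (-1.23), which belong to the same network, also fell, with adjusted p-values of 0.00562 to 0.0180.

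The other 5 inner kinetochore genes did not pass in the unpaired fit. Cenpw, the histone-fold partner of Cenpt, had levels of 0.91, 0.57, 0.44 and -0.34 in Sca-1+ samples, against 2.45, 2.34, 2.41 and 1.15 in Sca-1- samples. In both groups replicate 4 was the lowest, the groups did not overlap, and the difference of -1.70 had an adjusted p of 0.0702 unpaired and 0.00136 with the slide as a block. Cenpo, another subunit of the network, had levels of 0.69, 0.38, 0.28 and 0.40 in Sca-1+ samples, against 1.32, 1.19, 0.90 and 0.94 in Sca-1- samples. The groups were separate by a narrow gap, and the difference of -0.65 passed only with the block (adjusted p = 0.107 unpaired and 0.0134 blocked).

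Cenpc1, the scaffold that bridges the CENP-A nucleosome and the outer kinetochore, had levels of -0.17, 0.09, -0.34 and 0.84 in Sca-1+ samples, against 0.66, 0.52, 0.36 and 1.09 in Sca-1- samples. Sca-1+ replicate 4 lay above 3 of the Sca-1- samples, and the difference was -0.55 (95% confidence interval -1.18 to 0.08). Cenpq, a partner of Cenpo in the network, had levels of 0.42, 0.09, 0.14 and 1.15 in Sca-1+ samples, against 0.64, 0.58, 0.72 and 1.33 in Sca-1- samples, with overlap and a difference of -0.36 (-0.99 to 0.26). Cenpb, which binds a DNA motif in centromeric repeats, had levels of 2.64, 2.29, 2.41 and 2.61 in Sca-1+ samples, against 2.67, 2.76, 2.37 and 2.56 in Sca-1- samples. Its groups lay on top of each other, its difference was -0.10 (-0.43 to 0.22), and it was positive on 2 of the 4 slides. None of Cenpc1, Cenpq and Cenpb passed with the slide as a block (adjusted p = 0.0560, 0.0988 and 0.623).

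**Figure D3:**
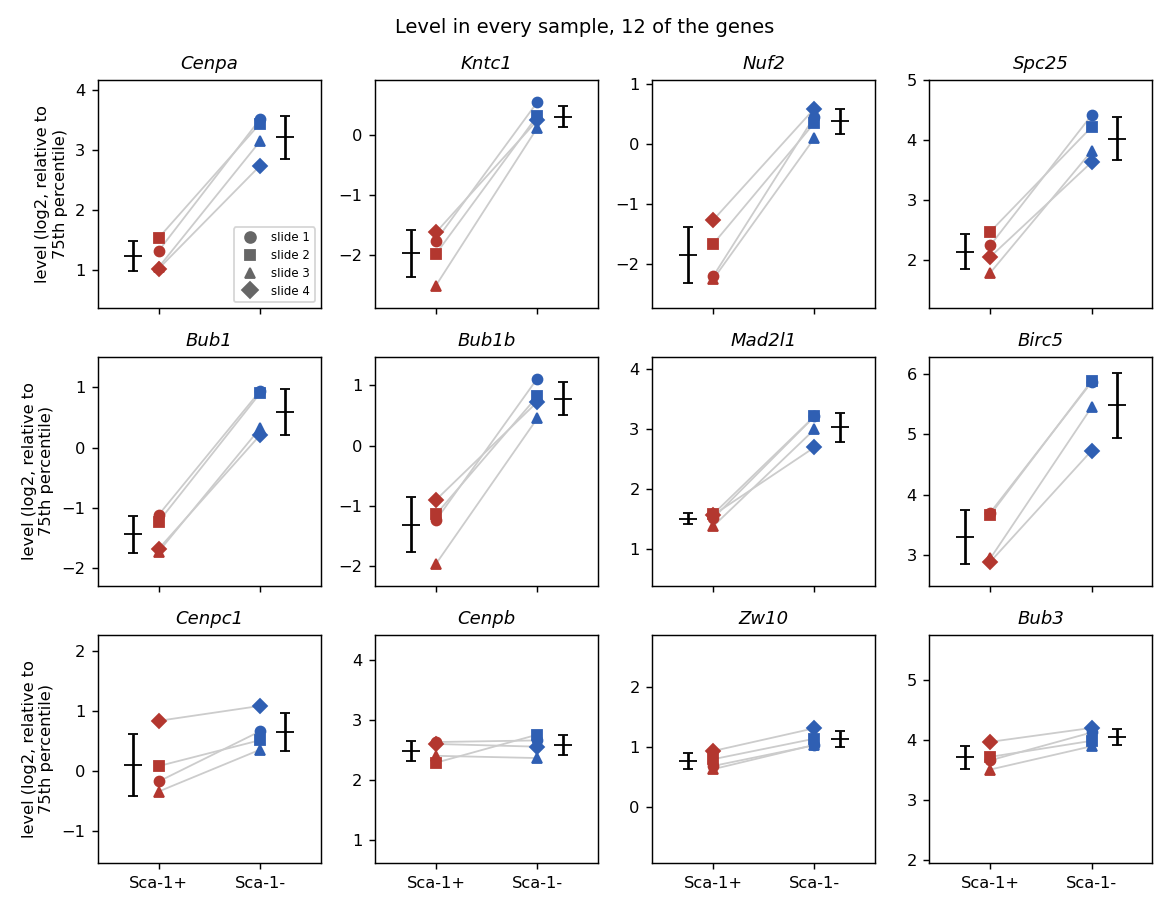
Levels (log2, relative to the array's 75th percentile) of 12 genes in each sample, with Sca-1+ left of Sca-1-, grey lines joining samples of the same slide, and bars giving the mean and SD of 4 samples. Each panel spans the same number of log2 units, and the steep lines of Cenpa to Birc5 contrast with the flatter lines of Cenpc1, Cenpb, Zw10 and Bub3.

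In the outer kinetochore, 6 of the 9 genes of the KMN network fell, 0 rose, and 8 fell with the slide as a block. This network is made of Casc5 (now Knl1), the Mis12 complex and the Ndc80 complex, and it is the main microtubule-binding unit of the kinetochore. All 4 subunits of the Ndc80 complex, the part that contacts the microtubule, fell, with log2 differences of -2.22 for Nuf2, -2.07 for Spc24, -1.88 for Spc25 and -1.80 for Ndc80. Nuf2 had levels of -2.20, -1.66, -2.25 and -1.27 in Sca-1+ samples, against 0.46, 0.35, 0.10 and 0.59 in Sca-1- samples (4.66-fold lower, adjusted p = 0.00503). Spc25 had levels of 2.25, 2.48, 1.79 and 2.06 in Sca-1+ samples, against 4.42, 4.22, 3.82 and 3.63 in Sca-1- samples (3.67-fold lower, adjusted p = 0.00577). Both genes were separated by more than 1 log2 unit between the groups.

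The Mis12 complex, which links the Ndc80 complex to the inner kinetochore, was uneven. Nsl1 had levels of -0.66, -0.71, -1.65 and -1.27 in Sca-1+ samples, against 1.37, 1.32, 0.91 and 0.53 in Sca-1- samples, and fell by 2.11 (95% confidence interval -2.75 to -1.47, adjusted p = 0.00817). Pmf1 fell by 1.06 (-1.48 to -0.64, adjusted p = 0.0280), although leaving out any array except Sca-1- replicate 4 ended that call. Dsn1 had levels of -0.86, -0.57, -0.94 and 0.02 in Sca-1+ samples, against 0.59, 0.51, 0.07 and 0.62 in Sca-1- samples. Slide 4 had the highest Dsn1 level in each group, and the difference of -1.03 had an adjusted p of 0.0964 unpaired and 0.0195 blocked. Mis12 had levels of -0.92, -0.64, -0.66 and -0.04 in Sca-1+ samples, against -0.41, -0.33, -0.50 and 0.09 in Sca-1- samples. Its groups overlapped, and the difference was -0.28 (-0.78 to 0.22) with adjusted p = 0.149 even in the blocked fit. The intervals of Nsl1 and Mis12 did not overlap, and no test of the difference between subunits was made.

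Casc5, the scaffold on which checkpoint proteins assemble, had levels of -1.35, -1.82, -2.33 and -3.21 in Sca-1+ samples, against 0.16, -0.04, -0.47 and -1.36 in Sca-1- samples. Replicate 4 was lowest in each group, and Sca-1- replicate 4 overlapped Sca-1+ replicate 1. Within slides 1 to 4 the difference was -1.51, -1.79, -1.86 and -1.85, and its adjusted p was 0.150 unpaired and 0.00116 with the slide as a block.

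Of the outer corona genes, 3 of the 4 tested fell and 0 rose. Kntc1 encodes Rod, which forms the RZZ complex with Zwilch and Zw10 and brings the dynein motor and Mad1 to unattached kinetochores. It had levels of -1.76, -1.99, -2.51 and -1.63 in Sca-1+ samples, against 0.54, 0.31, 0.11 and 0.23 in Sca-1- samples, and was 4.83-fold lower (-2.27 ± 0.21 SE, adjusted p = 0.00503). With normexp background correction, which reduced the Kntc1 difference to -1.53, it still passed. Zwilch had levels of -0.70, -0.82, -1.31 and -0.87 in Sca-1+ samples, against 1.22, 1.17, 0.72 and 0.64 in Sca-1- samples (3.63-fold lower, adjusted p = 0.00503). For both genes the highest Sca-1+ sample lay at least 1 log2 unit below the lowest Sca-1- sample.

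Zw10, the remaining subunit, also acts in membrane traffic between the endoplasmic reticulum and the Golgi. It had levels of 0.68, 0.79, 0.63 and 0.93 in Sca-1+ samples, against 1.03, 1.13, 1.03 and 1.31 in Sca-1- samples. The difference was small and even, -0.35, -0.34, -0.40 and -0.38 on slides 1 to 4, against -2.30, -2.30, -2.62 and -1.86 for Kntc1, and it passed only with the block (adjusted p = 0.370 unpaired and 0.0426 blocked). The 95% confidence interval was -0.67 to -0.07 for Zw10, -2.31 to -1.41 for Zwilch and -2.75 to -1.79 for Kntc1. The Kntc1 probe lies at chr5:124271399-124271458 and the Zw10 probe at chr9:48886529-48886588, both on the plus strand of mm9.

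Cenpe, the kinesin that carries chromosomes toward the spindle equator, had levels of 1.98, 1.71, 1.17 and 1.26 in Sca-1+ samples, against 4.04, 3.92, 3.25 and 3.06 in Sca-1- samples. The groups did not overlap, and it was 4.11-fold lower (-2.04 ± 0.28 SE, adjusted p = 0.00939). Cenpf, a large coiled-coil protein of the corona, was not tested because it exceeded background clearly on 0 Sca-1+ arrays and 3 Sca-1- arrays. Its measured levels were -4.49, -4.56, -5.73 and -5.56 in Sca-1+ samples, against -3.26, -3.61, -3.53 and -4.02 in Sca-1- samples, which gives a bound of 1.304-fold lower. Such a bound sets the brighter group's mean against the higher of the probe's own signal and the lowest signal that counts as well above background on each array of the dimmer group. It compares means and is not a confidence limit.

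**Figure D4:**
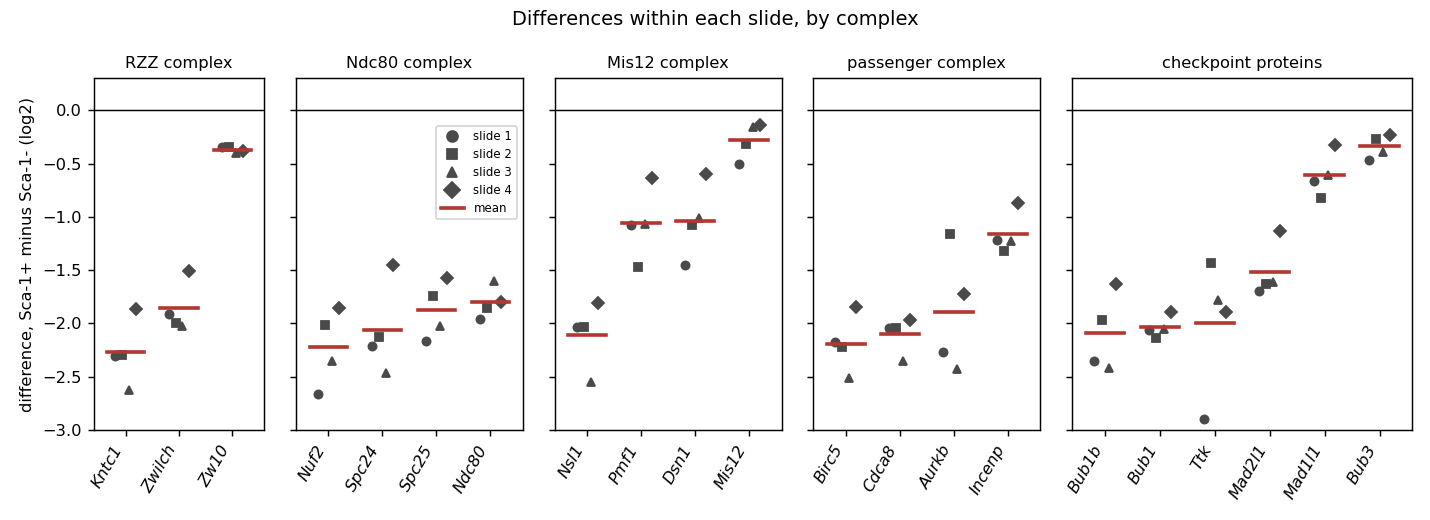
Differences, Sca-1+ minus Sca-1- (log2), within each of the 4 slides (symbols) and their mean (red line) for the subunits of 4 complexes and for 6 checkpoint proteins. The 4 subunits of the Ndc80 complex lie close together, whereas Zw10, Mis12, Mad1l1 and Bub3 lie nearer to 0 than their partners on every slide.

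In the spindle checkpoint, 4 of 6 genes fell, 0 rose, and 5 fell with the slide as a block. Bub1, a kinase that recruits other checkpoint proteins to the kinetochore, had levels of -1.12, -1.23, -1.73 and -1.69 in Sca-1+ samples, against 0.94, 0.90, 0.32 and 0.21 in Sca-1- samples. It was 4.10-fold lower (-2.03 ± 0.23 SE, adjusted p = 0.00531). Its probe (chr2:127626988-127627047, minus strand, mm9) was spotted 10 times per array, and the SD between those spots was 0.05 to 0.17 on the log2 scale, a technical spread within arrays, while the SD between samples was 0.31 in Sca-1+ and 0.38 in Sca-1-. Bub1b, which encodes BubR1 of the mitotic checkpoint complex, had levels of -1.24, -1.15, -1.97 and -0.91 in Sca-1+ samples, against 1.11, 0.82, 0.45 and 0.72 in Sca-1- samples (4.27-fold lower, adjusted p = 0.00577). Mad2l1, the checkpoint protein that binds and holds the anaphase activator Cdc20, had levels of 1.52, 1.59, 1.38 and 1.57 in Sca-1+ samples, against 3.21, 3.22, 3.00 and 2.70 in Sca-1- samples. Its Sca-1+ levels lay within a narrow range, and it was 2.86-fold lower (-1.52 ± 0.15 SE, adjusted p = 0.00503). Ttk, the kinase Mps1 that starts checkpoint signalling, fell by 2.00 (adjusted p = 0.0326) but only 1 of the 4 Sca-1+ arrays had its probe clearly above background. Normexp background correction (-0.40), quantile normalization (-2.04) and testing with no filter on dim probes each ended its call, as did the authors' deposited table of values and leaving out Sca-1+ replicate 1 or 3 or Sca-1- replicate 1, 2 or 4.

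Bub3 and Mad1l1 showed smaller differences. Bub3, a partner of both Bub1 and BubR1 that also takes part in splicing, had levels of 3.66, 3.71, 3.50 and 3.96 in Sca-1+ samples, against 4.12, 3.98, 3.89 and 4.20 in Sca-1- samples. Sca-1+ replicate 4 overlapped the Sca-1- range, and the difference was -0.34 (95% confidence interval -0.67 to -0.01, adjusted p = 0.532 unpaired and 0.0701 blocked). Mad1l1, which anchors Mad2 at the kinetochore, had levels of 0.50, 0.31, 0.17 and 0.63 in Sca-1+ samples, against 1.16, 1.13, 0.77 and 0.95 in Sca-1- samples. Its groups did not overlap, and the difference of -0.60 (-0.96 to -0.25) passed only with the block (adjusted p = 0.147 unpaired and 0.0333 blocked). These intervals lay above those of Bub1 (-2.57 to -1.502) and Bub1b (-2.66 to -1.53), with no test of the difference between genes.

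All 6 genes of the chromosomal passenger complex and the shugoshins fell, with a median difference of -2.05. The passenger complex corrects faulty attachments through the kinase Aurora B, and shugoshins protect cohesion at the centromere. Sgol2 (now Sgo2a) had levels of -2.98, -2.93, -2.99 and -3.01 in Sca-1+ samples, against -0.80, -0.38, -1.19 and -1.24 in Sca-1- samples (4.22-fold lower, adjusted p = 0.00503). The Sca-1+ samples were nearly equal, and the spread lay in the Sca-1- samples. With normexp background correction the Sgol2 difference was -1.01 and did not pass. Sgol1 (now Sgo1) had levels of 0.50, 0.53, 0.24 and -0.13 in Sca-1+ samples, against 2.67, 2.62, 2.22 and 1.76 in Sca-1- samples (4.09-fold lower, adjusted p = 0.00595).

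Birc5 encodes survivin, the passenger subunit that finds the centromere. It had levels of 3.70, 3.67, 2.94 and 2.88 in Sca-1+ samples, against 5.87, 5.89, 5.45 and 4.73 in Sca-1- samples, and was 4.57-fold lower (-2.19 ± 0.31 SE, adjusted p = 0.0114). It has 3 probes that share no position on the plus strand of chromosome 11 (mm9). The probe at chr11:117716978-117717037 was used for the test, and those at chr11:117714057-117714116 and chr11:117711112-117711171 gave -2.24 each. The last of these is shown 5′ to 3′ as the oligonucleotide on the array that lies farthest from the tested probe and gave a similar difference.
Birc5 (chr11:117711112-117711171, plus strand): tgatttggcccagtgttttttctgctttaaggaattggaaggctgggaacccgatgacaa
Cdca8, the subunit borealin, fell by 2.102 (adjusted p = 0.0157) and its other probe lay at -2.24. Incenp, the scaffold that activates Aurora B, fell by 1.16 (95% confidence interval -1.56 to -0.76, adjusted p = 0.0141), and within slides 1 to 4 by 1.22, 1.32, 1.23 and 0.87 on the log2 scale. Aurkb, the kinase itself, exceeded background clearly on 0 of the Sca-1+ arrays and on all 4 Sca-1- arrays. It had levels of -4.51, -3.54, -4.50 and -4.86 in Sca-1+ samples, against -2.24, -2.38, -2.07 and -3.13 in Sca-1- samples, and was at least 2.70-fold lower (adjusted p = 0.0276). That call ended with normexp (-0.43), without the filter on dim probes and without any array other than Sca-1+ replicate 2 or Sca-1- replicate 4.

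Neither of the remaining Cenp genes passed in the unpaired fit. Cenpj encodes a protein of the centriole rather than of the kinetochore. Its levels were 0.79, 0.95, 0.82 and 1.00 in Sca-1+ samples, against 1.20, 1.30, 1.13 and 1.27 in Sca-1- samples. The groups did not overlap, but the difference was small, -0.33 (95% confidence interval -0.60 to -0.07, adjusted p = 0.356 unpaired and 0.0584 blocked). Cenpv had levels of -0.09, -0.30, -0.63 and -1.26 in Sca-1+ samples, against 1.06, 0.81, 0.03 and -0.68 in Sca-1- samples. It varied widely within each group, with replicate 4 lowest in both, and its difference of -0.87 passed only with the block (adjusted p = 0.624 unpaired and 0.0223 blocked).

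Of the 41 tested genes, 34 (82.9%) had their least negative difference on slide 4, the slide scanned on another day and extracted with another protocol version. The same was true of 82.1% of the 28 genes that fell, beside 77.4% of all 314 genes called lower. Where a second probe existed, the sign of its mean difference was the same. The 16 further probes of 13 genes were all negative, as was each probe used, beside 44.6% of all tested genes. Of the 16, 14 met the filter used for testing, and those of Nsl1 and Nuf2 that did not were dim. The dim Nuf2 probe had overlapping groups and a positive difference on slide 4 (0.93).

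Related genes that are not among the 42 were read in the same fit. Like the 42 genes, these lists were chosen with earlier results of these data known. Of 22 measured centromere and kinetochore partners, 15 fell and 0 rose, beside 1.58% and 0.126% of all tested genes, with a median difference of -1.47. These included Mlf1ip (now Cenpu), a partner of Cenpq (-1.54 ± 0.16 SE, adjusted p = 0.00503), and Kif18a, a kinesin that dampens chromosome movement (-1.35, adjusted p = 0.00520). Ska1, a microtubule-binding partner of the Ndc80 complex, fell by 2.21 (adjusted p = 0.00595). Hjurp, the chaperone that deposits CENP-A, fell by 0.96 (adjusted p = 0.0125). Ska2 and Ccdc99 (now Spdl1) were also among the 15, each with only 1 Sca-1+ array clearly above background. Both met the filter through the Sca-1- arrays. Zwint, a partner of Casc5, had a mean level of 3.97 in both groups and a difference of 0.00.

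Cohesion genes hold sister chromatids together until anaphase. Of 16 measured, 2 fell and 0 rose, beside 1.58% and 0.126% of all tested genes, with a median difference of -0.26. With the slide as a block 5 fell, beside 4.12% of all tested genes. The genes that fell were Esco2, the acetyltransferase that establishes cohesion in S phase (-2.66, adjusted p = 0.0364, with 1 of 4 Sca-1+ arrays clearly above background), and Cdca5, the cohesion stabiliser sororin (-1.86, adjusted p = 0.0154). The core ring genes Smc1a (-0.35), Smc3 (-0.43) and Rad21 (-0.68) did not pass in the unpaired fit, and Rad21 passed with the block.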

How the data were processed

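Per the labels, RNA of sorted pDC was amplified, labelled with Cy3 and hybridised to single-colour Agilent arrays. Per the file headers, spot intensity was extracted with Agilent Feature Extraction 10.7.3.1, and the deposited processed intensity was already background-corrected. The authors' deposited series table holds log2 values with a median of 3.90 per array, and other deposited marks per spot were used to find outlier and dim spots. Control spots and 105 to 162 outlier spots per array were left out, spots of a probe were averaged as log2 values, and each array's 75th percentile was subtracted. Names were updated through RefSeq for the whole table, and the 42 genes kept the name in the files (58 probes). Testing required a brightest probe marked well above background on 4 or more of the 8 arrays. The unpaired comparison used limma 3.58.1 (R 4.3.3), two-sided, with Benjamini-Hochberg adjustment over 19818 genes and a threshold of 0.05.

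Same-numbered samples lay on the same slide, per the file headers, and the slide was used as a block in an alternative fit. Deviations from the group means correlated at 0.44, 0.43, 0.64 and 0.89 within slides 1 to 4. Between samples of different slides they correlated at 0.12 to 0.54 among slides 1 to 3, and at -0.72 to -0.39 with slide 4. Sca-1+ replicate 1 correlated more with Sca-1- replicate 2 (0.54) than with its own slide partner (0.44). On every slide Sca-1+ lay at position 2 and Sca-1- at position 1, so position and group cannot be told apart. Simulated data with 200 of 19818 genes changed by 2 log2 units gave 177 recovered and 7 false calls in the unpaired comparison. The simulated noise was independent between arrays and genes and held no slide effect, so these figures check the code and not its behaviour on these arrays. Genes given by sample are, by the rule used, the 3 with the smallest adjusted p in each role, those that did not pass and those with only a bound. The 42 genes and all lists were chosen with earlier results of these data known. The exon or untranslated region that a probe lies in was not examined. Promoters are RefSeq windows of build GRCm38.p6. Figures were drawn with matplotlib 3.10.9.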

Additional observations from a re-analysis of the deposited data

Results flagged for a closer look

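In 84 groups of 4 samples (42 genes in Sca-1+ and in Sca-1- samples), 3 held a sample set far apart from the others, and chance alone flags about 5% of such groups. The Cenpi level in Sca-1+ replicate 3 was -1.64, against -1.09 to -1.05 in the other Sca-1+ samples. For Cenpw, Sca-1- replicate 4 had a level of 1.15, against 2.34 to 2.45 in the other Sca-1- samples, and the Cenpw difference without that sample was -2.01 and passed. For Ttk, Sca-1- replicate 3 had a level of -3.104, against -2.41 to -2.28 in the other Sca-1- samples.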

How the results depend on the processing

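The number of genes that fell was 28 of 41, and 0 rose under any setting. It was 35 with the slide as a block (replicate block), 24 with normexp background correction, 27 with quantile normalization or with the authors' deposited table, 28 with scaling on detected probes, and 22 of 42 with no filter on dim probes. When 1 array was left out the count ranged from 18 to 28, and over all fits that left out an array or both samples of a replicate number it ranged from 0 to 31. The number of all genes called was 339, but 1233 with the block, 182 with no filter, and 1 to 879 when samples were left out, so the fits without replicate 1 or 2 made almost no calls for any gene. The median difference of -1.82 was -1.16 with normexp, whose offset makes differences of dim probes smaller, and -1.96 to -1.73 when samples were left out. Cenpb took a positive difference, 0.018, without replicate 2, and ranged from -0.18 to 0.018 when samples were left out. No other gene changed sign. The block added Cenpw, Cenpo, Zw10, Cenpv, Dsn1, Casc5 and Mad1l1 to the genes that fell and changed no other call. Cenpf, Cenpn, Ttk and Aurkb were close to background in Sca-1+ samples, which limits their fold changes.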

Other observations

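Most second probes lay within 0.31 log2 units of the probe used, as for Mad2l1 (-1.55 and -1.21 beside -1.52), and the exceptions were another Cenpb probe (-0.47 beside -0.10) and the dim second probes of Nsl1 (-1.68 beside -2.11) and Nuf2 (-0.96 beside -2.22). The slide 4 files gave the names Casc5, Cenpp and Nuf2 to 3 further probes, which were well above background on 2, 1 and 0 arrays and were not used.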
